A study of Homo sapiens with 10 samples.

Results

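The genes described here make or carry targets of immunotherapy at the surface of neuroblastoma cells. 5 encode enzymes that build the disialoganglioside GD2 (UGCG, ST3GAL5, ST8SIA1 and B4GALNT1) or extend it (B3GALT4). Another 5 encode cell surface proteins that antibodies or engineered T cells are directed at (L1CAM, NCAM1, CD276, GPC2 and CD274). Members were chosen by gene symbol, and the brightest probe set per symbol over the arrays was taken. All 10 genes were found, with 1 probe set each, among 21448 gene probe sets.

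Whole-transcript Affymetrix arrays, 10 in number, measured their RNA in the human neuroblastoma lines SK-N-FI and SK-N-AS. Each line was exposed for 48 h to 30 µM BG-P1600-TAT, a polymer conjugate that the series title directs at the norepinephrine transporter and the integrin αvβ3, or to PBS as control. For SK-N-FI there were 2 controls and 2 treated samples, both numbered 1 and 2. The SK-N-AS controls (3 samples) carry the array numbers 25 to 27, and its treated cells (3 samples) the numbers 28 to 30. In their titles all arrays of an SK-N-AS arm share the number 1 ahead of the array number. The design text mentions more SK-N-FI replicates than were analysed here. Titles of the treated SK-N-AS arrays write BG-P-TAT, which was read as the same compound. Titles of the controls of both lines call them untreated. Whether the SK-N-AS samples were separate cultures is not stated, and p-values that use them, also between the lines, may rest on technical spread. Precision is limited throughout by how few arrays there were.

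GD2 is a sphingolipid with a head of sugars and sialic acids, and is the target of antibodies used against neuroblastoma. UGCG puts glucose on ceramide, galactose is added next, ST3GAL5 adds a sialic acid to make GM3, and ST8SIA1 adds another to make GD3. B4GALNT1 then adds N-acetylgalactosamine to GD3, which makes GD2, or to GM3, which makes GM2. B3GALT4 adds galactose to GM2 and GD2 and so draws both into larger gangliosides. L1CAM and NCAM1 are adhesion proteins of the immunoglobulin family on neurons, CD276 (B7-H3) is a checkpoint molecule found on many solid tumours, GPC2 is a glypican of the developing nervous system, and CD274 (PD-L1) is the ligand of the inhibitory T cell receptor PD-1. RNA levels of enzymes do not measure the ganglioside, and RNA of an antigen does not measure the protein at the surface.

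Values are log2 signals as deposited, so that a difference of 1 is a 2-fold difference. The background threshold of an array was set at the 95th percentile of its 612 negative controls, and it ran from 7.44 to 8.26 on the log2 scale for SK-N-FI and from 6.75 to 7.23 for SK-N-AS. Gene probe sets had a median of 6.61 to 6.62 on each SK-N-FI array but of 5.75 to 5.81 on those of SK-N-AS, and the lines may have been normalized apart. A gene is said to be called where its p, adjusted over all probe sets, was under 0.05. The median difference between the control arrays over all probe sets, taken as SK-N-AS less SK-N-FI, was -0.61 as deposited and 0.03 after quantile normalization of all 10 arrays together. Differences between the lines are therefore given on both scales, and those that held on 2 further scales (arrays centred on the gene median, or on the median of the negative controls) are named. Differences between treated and control cells of 1 line do not carry that offset. In RNA from whole cultures, fewer cells of a type and less RNA per cell cannot be told apart.

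The labels of both lines as neuroblastoma were set against marker genes. Of 16 noradrenergic neuroblastoma markers named on the array, 15 were above background on every SK-N-FI array and 7 on every SK-N-AS array. Of 16 mesenchymal markers, 4 and 9 were. No Schwann cell marker of 5 was above background on every array of either line, and 1 of 8 endothelial markers (EGFL7) was in both. Of 11 leukocyte markers, 0 were above background on every SK-N-FI array and 2 on every SK-N-AS array (CD68 and NKG7), and the log2 of their summed signal ran from 8.93 to 9.47 in SK-N-FI and from 11.9 to 12.6 in SK-N-AS. That sum in SK-N-AS was mostly CD68, a lysosomal protein of macrophages, which read from 11.46 to 12.42 there and from 6.34 to 6.63 in SK-N-FI. Of the 11 markers, 7 were above background on no SK-N-AS array, the T and B cell markers CD3E, CD3D, CD8A and MS4A1 and the myeloid markers CD14, ITGAM and LYZ. PTPRC, the pan-leukocyte phosphatase, read 6.01, 8.65 and 7.83 in SK-N-AS controls and 6.92, 7.68 and 9.09 in treated cells. It was above background on 5 of 6 SK-N-AS arrays and on 0 SK-N-FI arrays. Between control arrays PTPRC was called higher in SK-N-AS on all 4 scales. Its part in the results below was not tested. The strongest axis of variation over the SK-N-AS arrays (50.04% of their variance) set arrays 25 and 28 (scores -57.5 and -31.0) against 26 and 30 (26.9 and 50.6), which crosses treatment. PTPRC was likewise lowest on arrays 25 and 28 and highest on 26 and 30.

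The enzymes that build or extend GD2 stood at different places relative to background. B4GALNT1, the GM2 and GD2 synthase, was above background on every SK-N-FI array and below it on every SK-N-AS array, and UGCG was above background on all 10 arrays. ST8SIA1, the GD3 synthase, was below background on all 10 arrays, as was B3GALT4. ST3GAL5 was below background on all 4 SK-N-FI arrays and above it on 3 of 6 SK-N-AS arrays. Against a stricter threshold, the 99th percentile of the negative controls, B4GALNT1, UGCG, CD276 and CD274 were above on 0 of 4 SK-N-FI arrays, and UGCG and CD276 on 0 of 6 SK-N-AS arrays. L1CAM and NCAM1 were above it on all 4 SK-N-FI arrays, and on 1 and 4 of the 6 SK-N-AS arrays.

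UGCG read 8.88 and 9.38 in SK-N-FI controls and 9.01 and 9.17 in treated SK-N-FI cells. In SK-N-AS it read 7.71, 8.34 and 7.98 in controls and 7.92, 8.13 and 8.55 in treated cells. All SK-N-FI arrays lay above all SK-N-AS arrays as deposited. The difference between control arrays, SK-N-AS minus SK-N-FI, was -1.12 (95% interval -1.71 to -0.53, adjusted p = 0.00332 in the limma fit) as deposited but 0.52 (-0.03 to 1.07, adjusted p = 0.109) after joint quantile normalization. The direction of the UGCG difference thus turned with the scale, and the adjusted p as deposited became 0.0530 without SK-N-FI control array 2, with a difference of -0.88. Between treated arrays UGCG was called in opposite directions, at -0.89 (adjusted p = 0.0135) as deposited and 0.73 (adjusted p = 0.0324) on the joint quantile scale. Within SK-N-AS, array 25 was lowest and array 30 highest, which are also the extremes of the axis of variation that crosses treatment.

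ST3GAL5, the GM3 synthase, read 6.78 and 6.80 in SK-N-FI controls and 6.72 and 7.07 in treated SK-N-FI cells. In SK-N-AS the values were 7.03, 6.43 and 6.89 in controls and 7.64, 6.79 and 6.83 in treated cells. The ranges of the lines overlapped, and array 28 was the highest. Control arrays differed by -0.01 (-0.65 to 0.63, adjusted p = 0.985) as deposited and by 1.10 (0.36 to 1.85, adjusted p = 0.0195) on the joint quantile scale, where SK-N-AS was higher. On 7 of the 10 arrays the value was below the threshold of that array, so no order of the lines is given for this gene.

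ST8SIA1 read 3.19 and 3.23 in SK-N-FI controls, 2.85 and 3.14 in treated SK-N-FI cells, 4.40, 4.19 and 4.01 in SK-N-AS controls, and 3.80, 4.09 and 3.65 in treated SK-N-AS cells. Every value lay well under the background threshold of its array. The SK-N-AS signal was higher by 0.99 (0.49 to 1.48, adjusted p = 0.00239) in control arrays and by 0.85 in treated arrays, and by 1.11 and 0.97 on the joint quantile scale. The difference passed the threshold on all 4 scales in both pairs of groups, except without SK-N-FI treated array 1, where the treated arrays differed by 0.70 (adjusted p = 0.0654). Both levels are below background, so no fold is given and no expression is read from it. The probe sets whose pattern over the 10 arrays, after centring, came closest to that of ST8SIA1 were those of C9, PLLP and SLC17A3, at root mean square distances of 0.125, 0.139 and 0.142 log2 units, and each of these was also below background on every array.

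B4GALNT1 read 9.54 and 9.84 in SK-N-FI controls and 9.68 and 9.05 in treated SK-N-FI cells. In SK-N-AS it read 5.04, 4.54 and 4.43 in controls and 4.55, 4.36 and 4.83 in treated cells. Every SK-N-FI array was above the threshold, every SK-N-AS array was under it, and the lines did not overlap. Measured means in control cells were 9.69 ± 0.21 (SD, n = 2) in SK-N-FI and 4.67 ± 0.32 (SD, n = 3) in SK-N-AS. Against the background threshold of the SK-N-AS arrays, the SK-N-FI signal of B4GALNT1 was at least 6.44-fold higher in control cells and at least 5.55-fold higher in treated cells. On the joint quantile scale the bounds were at least 2.10-fold and 1.90-fold. The 99th percentile of the negative controls was 10.80, 9.77 and 9.41 on the SK-N-AS control arrays. On the treated SK-N-AS arrays it was 10.89, 8.72 and 9.62. Neither the bound for control cells nor that for treated cells holds at that stricter threshold. The log2 difference was -5.02 (-5.62 to -4.42, adjusted p = 1.98e-08) as deposited and -3.90 (-4.51 to -3.29, adjusted p = 4.72e-07) on the joint quantile scale. Closest in centred pattern over the 10 arrays were RIMBP2, SREBF2 and TUBB2B, at distances of 0.212, 0.236 and 0.246. Mean signals in SK-N-FI and SK-N-AS were 12.83 and 8.04, 11.83 and 6.95, and 11.60 and 6.99, so closeness here largely reports a similar line difference. These genes were above background on 6, 3 and 4 SK-N-AS arrays, where B4GALNT1 was on none.

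B3GALT4 read 4.71 and 4.06 in SK-N-FI controls, 3.60 and 3.42 in treated SK-N-FI cells, 3.44, 3.22 and 3.03 in SK-N-AS controls, and 3.37, 2.99 and 3.58 in treated SK-N-AS cells. The SK-N-FI controls were the highest arrays, and all 10 values were below background. SK-N-AS controls differed from SK-N-FI controls by -1.16 (adjusted p = 0.00224) as deposited and -1.03 (adjusted p = 0.00657) on the joint quantile scale, and by -0.31 with no call after centring on the gene median. Treated arrays of the lines differed by -0.20 (adjusted p = 0.548).

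**Figure D1:**
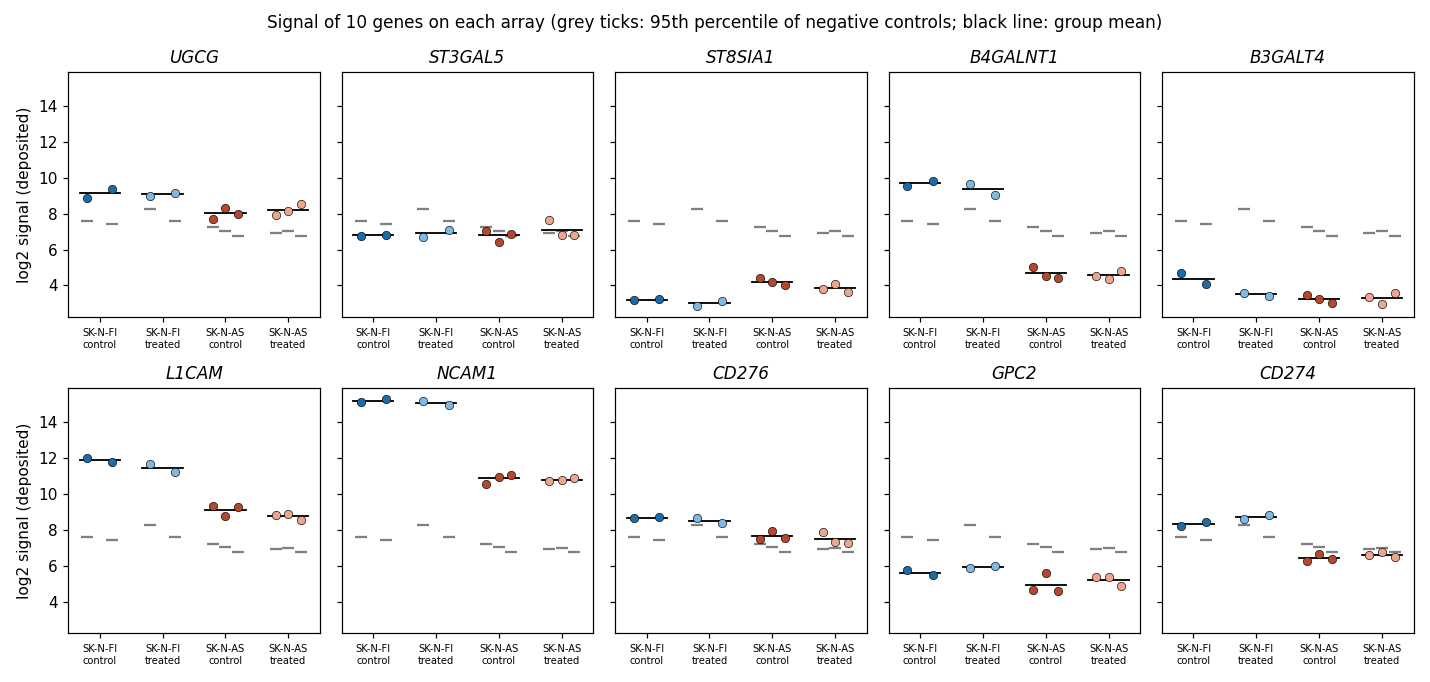
Signal of the 10 genes on each array, with the enzymes in the upper row and the surface proteins in the lower. The vertical axis is the deposited log2 signal, each point is 1 array, black lines are group means (2 or 3 arrays) and grey ticks are the 95th percentile of the negative controls of that array. B4GALNT1, NCAM1 and L1CAM separate the lines, B4GALNT1 with its SK-N-AS points under the ticks. ST8SIA1 and B3GALT4 lie under the ticks throughout, and treated and control points of a line lie close together.

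The surface proteins were, with the exception of GPC2, above background in SK-N-FI, and L1CAM, NCAM1 and CD276 were above background on all 10 arrays. NCAM1 and L1CAM were higher in SK-N-FI on all 4 scales. CD276 was not called on the joint quantile scale, and CD274 was called there between treated arrays only.

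NCAM1, the neural cell adhesion molecule CD56, read 15.12 and 15.28 in SK-N-FI controls and 15.16 and 14.96 in treated SK-N-FI cells. It read 10.57, 10.97 and 11.08 in SK-N-AS controls and 10.73, 10.76 and 10.92 in treated SK-N-AS cells. The lowest SK-N-FI array was far above the highest SK-N-AS array. SK-N-FI controls were 20.1-fold higher (log2 difference of SK-N-AS minus SK-N-FI -4.33, -4.82 to -3.84, adjusted p = 1.29e-08), and 11.2-fold higher on the joint quantile scale (-3.48, -3.95 to -3.02, adjusted p = 1.28e-07). In treated cells the differences were -4.26 and -3.34.

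L1CAM, an adhesion molecule of growing axons, read 11.98 and 11.81 in SK-N-FI controls, 11.70 and 11.24 in treated SK-N-FI cells, 9.34, 8.78 and 9.26 in SK-N-AS controls, and 8.85, 8.91 and 8.54 in treated SK-N-AS cells. The lines did not overlap. SK-N-FI controls were 6.81-fold higher as deposited (-2.77, -3.31 to -2.22, adjusted p = 1.36e-06) and 2.21-fold higher on the joint quantile scale (-1.14, -1.74 to -0.55, adjusted p = 0.00461). Treated arrays differed by -2.71 and by -1.04 (adjusted p = 0.0081) on the same scales.

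CD276 read 8.67 and 8.71 in SK-N-FI controls, 8.64 and 8.36 in treated SK-N-FI cells, 7.50, 7.96 and 7.53 in SK-N-AS controls, and 7.90, 7.33 and 7.27 in treated SK-N-AS cells. It exceeded the threshold on every array, by less than 1 log2 unit on SK-N-FI treated arrays 1 and 2 and on all 6 SK-N-AS arrays. As deposited, the control arrays differed by -1.02 (-1.58 to -0.47, adjusted p = 0.00403), and on the joint quantile scale by 0.55 (-0.04 to 1.13, adjusted p = 0.116). The direction turned with the scale. Between treated arrays the difference was -1.0004 (adjusted p = 0.00467) as deposited, and -0.86 (adjusted p = 0.0503) without SK-N-FI treated array 1.

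GPC2 was under the threshold on every array of both lines. It read 5.76 and 5.46 in SK-N-FI controls, 5.85 and 5.99 in treated SK-N-FI cells, 4.66, 5.58 and 4.59 in SK-N-AS controls, and 5.38, 5.36 and 4.85 in treated SK-N-AS cells. SK-N-AS control array 26 lay within the SK-N-FI range. The control arrays differed by -0.67 (adjusted p = 0.0813), and by -0.99 (adjusted p = 0.00742) without array 26.

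CD274 read 8.24 and 8.46 in SK-N-FI controls and 8.58 and 8.81 in treated SK-N-FI cells, and 6.27, 6.64 and 6.37 in SK-N-AS controls and 6.59, 6.77 and 6.48 in treated SK-N-AS cells. All SK-N-FI arrays were above background and all SK-N-AS arrays below it. SK-N-FI controls were at least 2.54-fold higher than the SK-N-AS background threshold as deposited (-1.92, -2.40 to -1.44, adjusted p = 9.70e-06). On the joint quantile scale no bound above 1 could be given, and the difference of -0.55 (-1.04 to -0.06) had an adjusted p of 0.0627. Between treated arrays the bound was at least 3.49-fold as deposited and at least 1.25-fold on the joint quantile scale (-0.65, adjusted p = 0.0317).

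Sequence just upstream of the start sites is shown for 3 genes: L1CAM, called higher in SK-N-FI on all 4 scales, CD274, above background in SK-N-FI only, and ST8SIA1, an enzyme of the GD2 route that was below background throughout. RefSeq promoter windows of GRCh38.p14 were found for 7 of the 10 members (13 windows), and B4GALNT1, B3GALT4 and NCAM1 had none. Each window is the 250 bases before the annotated start, written 5′ to 3′ on the strand of the gene, and capitals mark any match, on either strand, to the motifs searched. These were the GC box GGGCGG, found in 42.6% of all 35116 windows of this length, CCAAT (32%), the TATA box TATAAA (10.7%), the E-box CACGTG (6.34%), the STAT site TTCNNNGAA (6.57%), the interferon regulatory factor repeat, GAAA and GAAA with any 2 bases between (3.02%), and the AP-1 site TGANTCA (6.57%).
ST8SIA1, chr12:22334708-22334957, minus strand: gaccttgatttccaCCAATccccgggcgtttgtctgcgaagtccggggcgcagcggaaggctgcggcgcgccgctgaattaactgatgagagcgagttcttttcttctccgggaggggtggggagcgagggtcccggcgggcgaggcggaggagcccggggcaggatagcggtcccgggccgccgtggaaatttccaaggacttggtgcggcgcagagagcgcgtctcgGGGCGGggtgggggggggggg
L1CAM, chrX:153875945-153876194, minus strand: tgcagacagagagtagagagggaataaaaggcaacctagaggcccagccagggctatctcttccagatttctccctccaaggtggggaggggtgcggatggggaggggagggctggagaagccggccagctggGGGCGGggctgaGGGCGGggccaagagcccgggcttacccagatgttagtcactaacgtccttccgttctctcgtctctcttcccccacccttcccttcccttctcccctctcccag
CD274, chr9:5450292-5450541, plus strand: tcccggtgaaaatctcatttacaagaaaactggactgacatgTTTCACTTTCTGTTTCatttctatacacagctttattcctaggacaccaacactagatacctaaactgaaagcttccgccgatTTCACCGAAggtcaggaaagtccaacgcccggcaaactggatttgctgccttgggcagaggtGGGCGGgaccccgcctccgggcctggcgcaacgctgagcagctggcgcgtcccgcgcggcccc
The ST8SIA1 window held 1 GC box and 1 CCAAT with a GC content of 69.2%, and the L1CAM window held 2 GC boxes with 62.4%. In the CD274 window, with 54.8%, there were 1 GC box, 1 STAT site and 2 overlapping interferon regulatory factor repeats. The median GC content of all windows was 58%. A match describes letters in this window and not a bound site.

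Between the control arrays of the lines, 8 of the 10 genes were called as deposited, against 59.3% of all probe sets tested. Of these, 7 were higher in SK-N-FI (background 47.8%), and ST8SIA1 (1 gene) was higher in SK-N-AS (background 11.5%). On the joint quantile scale 6 were called (background 46.7%), with 4 higher in SK-N-FI (22.6%) against 2 in SK-N-AS (24%). The 2 were ST8SIA1 and ST3GAL5, and the 4 included B3GALT4. ST8SIA1 and B3GALT4 were below background on all 10 arrays, and ST3GAL5 on all but 3 SK-N-AS arrays. No order of expression is read from these calls. The median difference over the 10 genes was -1.14 as deposited and -0.40 on the joint quantile scale, beside -0.61 and 0.03 over all probe sets. Calls held on all 4 scales for B4GALNT1, L1CAM and NCAM1, higher in SK-N-FI (3 of 10, against 18.6% of all probe sets), and for ST8SIA1 in the other direction (1 of 10, against 11.4%). In treated arrays 7 genes were called as deposited (background 59%), 6 of them higher in SK-N-FI (47.8%) against 1 in SK-N-AS (11.2%), and CD274 joined those called on all 4 scales (4 higher in SK-N-FI, against 18.1%, and ST8SIA1 in SK-N-AS, against 11.1%). On the joint quantile scale 7 were called between treated arrays (background 45.3%), with 4 higher in SK-N-FI (21.9%) against 3 in SK-N-AS (23.4%). All arrays of SK-N-FI lay above all of SK-N-AS for 6 genes, beside 47.7% of all probe sets. Above background on every array were 6 genes in SK-N-FI (38.1% of all probe sets) against 4 in SK-N-AS (30.9%). The split of all calls between control arrays moved with the scale, from 10253 higher in SK-N-FI against 2473 higher in SK-N-AS as deposited to 4853 and 5155 on the joint quantile scale, 5969 and 7485 after centring on the gene median, and 9364 and 2984 after centring on the negative controls.

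**Figure D2:**
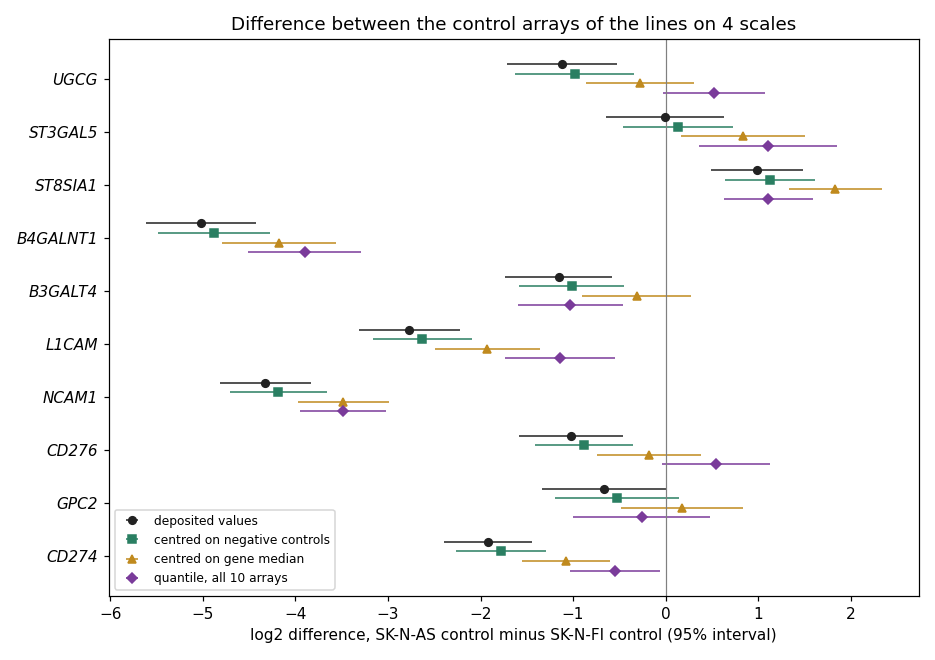
Difference between the control arrays of the lines for each gene, as log2 of SK-N-AS minus SK-N-FI on the horizontal axis, with 95% intervals of the limma fit, on 4 scales shown by colour and symbol. B4GALNT1, NCAM1 and L1CAM lie left of 0 on every scale and ST8SIA1 right of it, and UGCG and CD276 move from -1.12 and -1.02 as deposited to 0.52 and 0.55 on the joint quantile scale.

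Cells treated with the conjugate were compared with the controls of the same line. None of the 10 genes was called in SK-N-FI (background 0%) or in SK-N-AS (background 0%) in the limma fits, with an adjusted p of 1.00 for each gene in each line. Over all probe sets 0 were called in either line, although 611 (SK-N-FI) and 557 (SK-N-AS) had an unadjusted p under 0.05. The comparisons of the 2 lines share no arrays.

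In SK-N-FI, B3GALT4 had the largest difference among the 10 genes, -0.88 (-1.51 to -0.25, unadjusted p = 0.0131), below background in both groups, and was the 1 member under 0.05 before adjustment. L1CAM differed by -0.43 (-0.99 to 0.14), B4GALNT1 by -0.32 (-0.97 to 0.32) and CD276 by -0.19 (-0.70 to 0.32). ST8SIA1 differed by -0.21, NCAM1 by -0.14 (-0.65 to 0.37) and UGCG by -0.04 (-0.62 to 0.54). CD274 was higher in treated cells by 0.35 (-0.17 to 0.87, unadjusted p = 0.159), GPC2 by 0.31 and ST3GAL5 by 0.11, none past the threshold. For 6 genes the treated arrays were all to 1 side of the controls, against 27.8% of all probe sets. They were ST8SIA1, B3GALT4, CD276 and L1CAM, lower in treated cells, and GPC2 and CD274, higher. ST8SIA1, B3GALT4 and GPC2 were below background on all SK-N-FI arrays. With so few arrays such separation is frequent, and no effect of treatment is read from it. The 95% interval lay within a 2-fold change for 9 of the 10 genes, all but B3GALT4, against 84.9% of all probe sets. The median difference over the genes was -0.16.

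In SK-N-AS, 4 of the genes were above background on every array. Of these, NCAM1 differed by -0.07 (-0.55 to 0.42), L1CAM by -0.36 (-0.88 to 0.16), CD276 by -0.17 (-0.73 to 0.39) and UGCG by 0.19 (-0.38 to 0.76). Of the others, B4GALNT1 differed by -0.09 (-0.63 to 0.45), ST8SIA1 by -0.35, ST3GAL5 by 0.31, B3GALT4 by 0.08, GPC2 by 0.25 and CD274 by 0.18 (-0.28 to 0.65). Treated and control arrays overlapped for all 10 genes, whereas 7.31% of all probe sets did not overlap. All 10 intervals lay within a 2-fold change, against 82.1% of all probe sets. The median difference over the genes was 0.01, and 0 genes had an unadjusted p under 0.05.

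The difference of the treatment effects between the lines was tested in the fit of all arrays, and 0 of the 10 genes were called (background 0%). Over all probe sets 457 had an unadjusted p under 0.05. For B3GALT4 the SK-N-AS effect less the SK-N-FI effect was 0.96 (0.14 to 1.78, unadjusted p = 0.0247, adjusted p = 1.00). For B4GALNT1 it was 0.23 (-0.61 to 1.08) and for CD274 -0.16 (-0.84 to 0.51), so an effect that differs by 2-fold between the lines is within the first interval and outside the second.

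**Figure D3:**
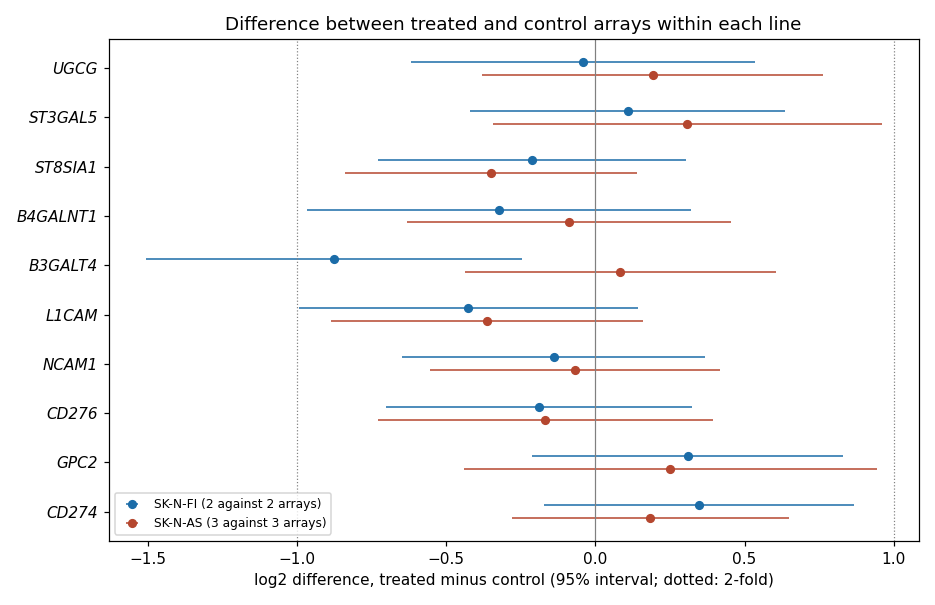
Difference between treated and control arrays for each gene, as log2 on the horizontal axis, with 95% intervals of the limma fit within each line (blue, SK-N-FI, 2 against 2 arrays; red, SK-N-AS, 3 against 3 arrays) and dotted lines at a 2-fold change. Every interval but that of B3GALT4 in SK-N-FI crosses 0, and every other interval lies between the dotted lines.

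The rest of the pathway was described from lists of genes. Over all probe sets tested, 38.1% were above background on every SK-N-FI array and 30.9% on every SK-N-AS array. Between control arrays, 47.8% of all probe sets were called higher in SK-N-FI against 11.5% in SK-N-AS as deposited (median -0.61), and 22.6% and 24% on the joint quantile scale (median 0.03). Counts of each list are to be set against these shares, and no list was tested as a group. The counts of calls include genes that were above background on no array of either line. Of 15 other enzymes on the GD2 route or branching from it, 5 were above background on every SK-N-FI array and 5 on every SK-N-AS array. Between control arrays 6 were called higher in SK-N-FI against 6 in SK-N-AS as deposited, and 3 and 8 on the joint quantile scale, with medians of -0.27 and 0.74, beside 47.8% and 11.5%, and 22.6% and 24%, of all probe sets. Among those called higher in SK-N-AS on the joint quantile scale, ST3GAL2, ST8SIA5, ST6GALNAC4 and A4GALT were above background on no array of either line. ST8SIA3, a brain sialyltransferase that lengthens chains of sialic acid, read 11.20 and 11.12 in SK-N-FI controls. In SK-N-AS controls it read from 3.60 to 3.89, which was below background. This makes it at least 17.8-fold higher in SK-N-FI, and at least 5.81-fold on the joint quantile scale (adjusted p = 1.12e-10 as deposited). B3GALNT1, the globoside synthase, was at least 4.25-fold higher in SK-N-FI (at least 1.43-fold on the joint quantile scale). ST6GALNAC3, which adds sialic acid to the inner part of gangliosides, differed by -3.26 and -1.71 on these scales. In the other direction, ST3GAL1, a sialyltransferase of O-glycans and gangliosides, read 4.01 and 4.39 in SK-N-FI controls and from 10.57 to 10.85 in SK-N-AS controls, at least 9.07-fold higher in SK-N-AS (at least 22.5-fold on the joint quantile scale). B4GALT6, a lactosylceramide synthase, acts on the route itself, where galactose follows glucose. It was higher in SK-N-AS by 2.92 and 4.22, with 1 of 4 SK-N-FI arrays above background. B4GALT5, another enzyme of that step, was above background on all 4 SK-N-FI and all 6 SK-N-AS arrays. Its sign turned with the scale (-0.95 and 0.74). ST6GALNAC6 was called lower in SK-N-AS as deposited (-1.36) and differed by 0.26 with the sign turned on the joint quantile scale.

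Among 12 enzymes and cofactors of ganglioside breakdown, 7 were above background on every SK-N-FI array and 6 on every SK-N-AS array, and as deposited 3 were higher in SK-N-FI against 4 in SK-N-AS, with a median of -0.36 (1 and 7 with a median of 1.19 on the joint quantile scale). The shares over all probe sets were 47.8% and 11.5%, and 22.6% and 24% on the joint quantile scale. PSAP, the precursor of the saposins, was higher in SK-N-AS by 0.97 and 1.70 on the 2 scales, and CTSA, which protects the lysosomal sialidase, by 0.91 and 2.09. Lower in SK-N-AS as deposited were GBA2, a glucosylceramidase outside the lysosome (-1.43, and 0.11 on the joint quantile scale) and ASAH1, the acid ceramidase (-0.9991 and 0.09). The signs of both turned with the scale.

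Of 19 genes that supply ceramide and sialic acid, 15 were above background on every SK-N-FI array and 14 on every SK-N-AS array. As deposited 9 were higher in SK-N-FI against 0 in SK-N-AS (median -0.66), and on the joint quantile scale 4 and 9 (median 0.74). The count higher in SK-N-FI as deposited is near the 47.8% of all probe sets, as its median is near their -0.61; on the joint quantile scale 22.6% and 24% of all probe sets were called. The 3 that were higher in SK-N-FI on all 4 scales were CERT1, the ceramide transfer protein (-4.05 as deposited and -2.48 on the joint quantile scale), CERS6, a ceramide synthase (-3.73 and -2.21), and PLEKHA8, a glycolipid transfer protein (-3.00 and -1.30). GNE, which starts sialic acid synthesis, differed by -2.23 and -0.53, the second without a call. CERT1 varied within SK-N-AS from 6.61 on array 25 to 8.96 on array 30, the extremes of the axis of variation that crosses treatment.

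Of 24 other surface antigens named on the array, 15 were above background on every SK-N-FI array and 8 on every SK-N-AS array. As deposited 15 were higher in SK-N-FI against 5 in SK-N-AS (median -1.16), and on the joint quantile scale 10 and 8 (median -0.49), beside 47.8% and 11.5%, and 22.6% and 24%, of all probe sets. DLK1, a Notch-related surface protein, read 16.81 and 16.92 in SK-N-FI controls and from 3.91 to 4.63 in SK-N-AS controls, at least 931-fold higher in SK-N-FI as deposited and at least 868-fold on the joint quantile scale. CHL1, of the L1 family, was also higher in SK-N-FI (at least 7.64-fold and at least 2.46-fold). So were NRCAM, of the same family (-6.35 and -5.06), and the adhesion protein CNTN1 (-4.55 and -3.04). NRCAM and CNTN1 were above background on all 4 SK-N-FI arrays, but on only 3 and 2 of 6 SK-N-AS arrays. The size of these differences thus rests on SK-N-AS levels that were often not above background. Higher in SK-N-AS were CD24, a glycosylated surface protein (at least 10.5-fold, and at least 25.98-fold on the joint quantile scale), the interleukin receptor IL13RA2 (3.55 and 4.90) and the pseudokinase receptor PTK7 (1.13 and 2.67).

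Of 20 immune checkpoint ligands, 5 were above background on every SK-N-FI array and 3 on every SK-N-AS array, with 9 higher in SK-N-FI against 4 in SK-N-AS as deposited (median -0.44), and 5 against 5 on the joint quantile scale (median 0.03). Both counts higher in SK-N-FI are near the shares of all probe sets, 47.8% and 22.6%, beside 11.5% and 24% higher in SK-N-AS. NCR3LG1 (B7-H6, the ligand of the activating receptor NKp30) differed by -3.06 and -1.48, with 1 of 6 SK-N-AS arrays above background, NECTIN3 by -2.74 and -1.15, and PVR (CD155, the poliovirus receptor) by -2.35 and -0.64. LGALS3 was lower in SK-N-AS as deposited (-0.9988) with the sign turned on the joint quantile scale (0.71). Of 14 natural killer ligands and complement regulators, 3 were above background on every array in each line, and 10 were higher in SK-N-FI against 2 in SK-N-AS as deposited (median -1.39; 8 and 2 on the joint quantile scale, median -0.81), set against the same shares of all probe sets. MICA, MICB, ULBP1, ULBP3, RAET1G and SERPING1 were called higher in SK-N-FI on both scales. All of these were above background on no array of either line, so the counts rest largely on signal not above background. ULBP2, a ligand of NKG2D, was at least 5.998-fold higher in SK-N-FI (at least 1.98-fold on the joint quantile scale). The complement inhibitor CD59, which limits complement lysis of antibody-coated cells, was higher in SK-N-AS by 1.07 and 2.43. CFI, complement factor I, was below background on all 4 SK-N-FI arrays and at least 2.75-fold higher in SK-N-AS controls (at least 7.30-fold on the joint quantile scale). CD46 had the opposite sign on the 2 scales (-1.25 and 0.42).

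**Figure D4:**
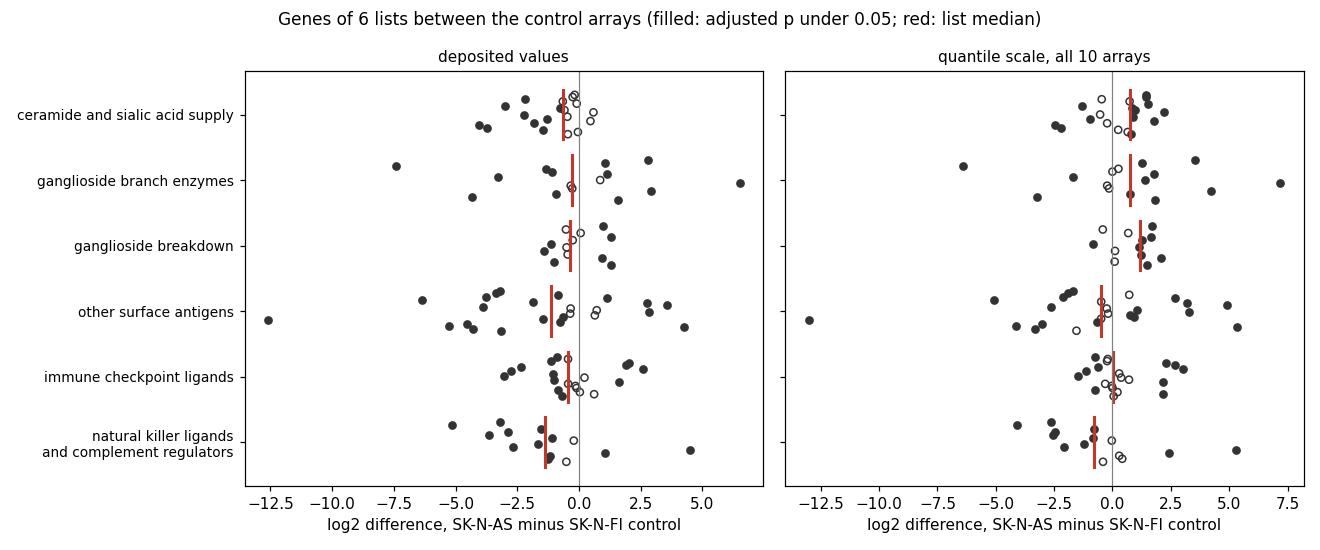
Log2 difference between the control arrays of the lines (SK-N-AS minus SK-N-FI, horizontal axis) for the genes of 6 lists around the GD2 route and the surface targets, as deposited on the left and on the joint quantile scale on the right. Each point is 1 gene, filled points passed an adjusted p of 0.05, and red bars are list medians. The medians move right from -0.27 to 0.74 for the enzymes on or branching from the route (ganglioside branch enzymes). For the surface antigens they move from -1.16 to -0.49.

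No gene of these lists was called for treatment in either line, and the values with the smallest unadjusted p are given as values only. In SK-N-FI, UGT8, the galactosylceramide synthase, differed by -0.73 (limma, adjusted p = 1.00), NCR3LG1 by 0.45 and SERPING1, the C1 inhibitor, by -0.45. UGT8 and SERPING1 were below background on all SK-N-FI arrays, and NCR3LG1 was above it. In SK-N-AS, EPCAM differed by -0.68 (limma, adjusted p = 1.00), NCAM2 by 0.64 and GM2A, the GM2 activator, by 0.55, all 3 below background on every array.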

How the data were processed

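Total RNA was extracted with Trizol and labelled with biotin by a whole-transcript protocol, per the labels' protocols. The authors deposited log2 signals per probe set, made with RMA and with Transcriptome Analysis Console 4.0.1.36 per the submitters' processing notes. RMA removes shifts shared by most genes of an array, and lines normalized apart cannot be compared without that offset.

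Of 24351 rows, 2903 were controls and 21448 were tested. The platform annotation gave 1 symbol for 17709, and 3739 are unnamed here. Groups were compared by lmFit and eBayes of limma 3.58.1 (R 4.3.3, no covariate), within each line for treatment and over 4 groups for the lines and the difference of effects, with Benjamini-Hochberg adjustment over all probe sets and a threshold of 0.05. No arrays were identical. Intervals are unadjusted 95% intervals. The fits were also run on simulated arrays with independent noise and known changes. Those arrays carried no offset between the lines, so that run does not bear on it.

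"At least" folds set the mean of the brighter line against, per array of the dimmer, the higher of its background threshold and its signal. All such folds use the 95th percentile of the negative controls, and none was computed at the 99th. The 99th percentile was 11.40 and 10.42 on the SK-N-FI control arrays, and 10.80, 9.77 and 9.41 on the SK-N-AS control arrays. As deposited, the brighter control means of B4GALNT1, CD274, B3GALNT1, ST3GAL1, CHL1, ULBP2 and CFI were under the mean of these in the dimmer line. Their bounds do not hold there, and CD24, at 10.92, was close to that limit. Of 189 genes in the lists, 170 were named on the array. Named from each list were up to 4 genes per direction with the largest deposited difference among those called and above background in the higher line, and the smallest p for treatment. The members and lists were chosen with earlier results of these data known. Proteins were not used here, and of the genome only the upstream windows were.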

Additional observations from a re-analysis of the deposited data

How the results depend on the processing

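Alternatives were joint quantile normalization, centring on the gene median or the negative controls, leaving out dim probe sets, eBayes with trend and robust settings, array weights and leaving out each array. Treatment and the difference of effects kept 0 calls in all. For the lines, 8213 of 9780 probe sets above background were called between control arrays and 8168 between treated arrays. Leaving out arrays gave 10722 to 12840 calls between control and 10802 to 12915 between treated arrays. The sign turned between control arrays for ST3GAL5 (1.10 by quantiles, 0.84 by gene median, 0.13 by negative controls), UGCG (0.52) and CD276 (0.55) by quantiles and GPC2 (0.18) by gene median, and between treated arrays for UGCG (0.73) and CD276 (0.50) by quantiles and GPC2 (0.11) and B3GALT4 (0.64) by gene median; the cause was not tested. Leaving out single arrays turned signs for treatment in SK-N-AS of B3GALT4 (-0.050 to 0.24), B4GALNT1 (-0.21 to 0.10) and NCAM1 (-0.22 to 0.034), in SK-N-FI of ST3GAL5 (-0.068 to 0.28) and UGCG (-0.29 to 0.20), and for ST3GAL5 between control (-0.13 to 0.17) and treated arrays (-0.084 to 0.37) of the lines. GPC2 was called between treated arrays without SK-N-AS control array 26 (adjusted p = 0.0225) and UGCG was not without SK-N-FI treated array 2 (0.0843). Same-numbered SK-N-FI arrays did not deviate together (r = -0.17, 2 numbers), and a replicate block on the number gave 0 calls (471 at an unadjusted p under 0.05). With the numbers crossed, chosen after seeing the data, the block gave 0 (924).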
